A study of Mus musculus with 13 samples.

Results

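The IMP2 pull-down was compared with its IgG control in mouse embryonic fibroblasts (MEFs), connective tissue cells grown from E12.5 embryos in DMEM with 10% FBS. The members are 6 libraries of the 13 in the series, taken by title: 3 of RNA recovered with an antibody to IMP2 (IMP2 IP) and 3 of RNA recovered with control immunoglobulin (IgG IP). RNA immunoprecipitation (IP) pulls a protein out of a cell extract with the RNA bound to it, and the IgG samples measure what the procedure recovers without a specific antibody. The other libraries are 3 of an IMP1 pull-down and 4 of total RNA, namely IMP2 KO, IMP2 WT, IMP1 KO and IMP1 WT. No genotype is labelled for the MEFs behind the IPs, although a general treatment note speaks of MEFs deleted for IMP1 or IMP2. Nothing says that replicates came from separate cultures, so p-values measure the spread between these samples, which may be technical.

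IMP2, the product of Igf2bp2, belongs to a family of RNA-binding proteins with IMP1 (Igf2bp1) and IMP3 (Igf2bp3). Its RRM and KH domains hold messenger RNAs in cytoplasmic granules and affect their stability, transport and translation. It is known as a substrate of the kinase mTOR, as a binder of IGF2 messages, and, from work in mice and in human tumour cells, for its link to messages of mitochondrial respiration.

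The counts assigned to genes were 15718705, 20170777 and 21756430 in the IMP2 IP libraries, against 13907917, 11840189 and 14548720 in the IgG IP libraries. The groups differed in composition. Records outside annotated genes made up 5.04% ± 0.296 of the records in IMP2 IP and 24.6% ± 0.507 in IgG IP (SD, n = 3 each), and the groups did not overlap (exact permutation test, 2-sided, p = 0.1, the smallest p that 3 against 3 allows). Gm26917, a predicted gene that can collect ribosomal RNA reads and was chosen after its values were seen, took 0.0979% to 0.148% of the counts in IMP2 IP and 10.3% to 11.3% in IgG IP. The part of this composition in the results below was not tested, except that leaving out the genes that can collect such reads gave 5255 genes higher and 5218 lower, close to the 5234 and 5205 reported here. IMP2 IP replicate 1 stood apart from replicates 2 and 3, with a chi-square per degree of freedom of 7.70 and 8.07 over genes, against 2.75 between replicates 2 and 3. The pairs of IgG IP libraries gave 1.14 to 1.67. Without that replicate, 5574 genes were higher and 5460 lower. Of 10 fibroblast markers, 8 were at 10 CPM or more in all 6 libraries, and the 10 summed to 20090 to 22730 CPM in IMP2 IP and 24480 to 24980 CPM in IgG IP. These ranges did not overlap, but on total counts they did, at 21760 to 24350 CPM in IMP2 IP and 22740 to 23040 CPM in IgG IP. Of the markers of 7 other cell types, the highest sum was that of 4 chondrocyte genes, at 106.1 to 114.8 CPM in IMP2 IP and 123.3 to 128.5 CPM in IgG IP. Nearly all of it was Sox9, at 103.2 to 112.0 CPM in IMP2 IP and 119.2 to 124.1 CPM in IgG IP, and the other 3 chondrocyte markers were each at 3.02 CPM or less in every library. Neuron markers summed to 50.77 to 54.21 CPM in IMP2 IP and 73.91 to 80.80 CPM in IgG IP, and the part of these differences in the results was not tested.

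IMP2 IP held larger shares of messages for respiratory chain, redox, proteasome, lysosomal and actin proteins. It held smaller shares of messages for giant scaffold and chromatin proteins and of most named non-coding RNAs, while Rpph1 and Brip1os were higher. Levels are given in CPM, which are counts brought to a common total with TMM scaling. They are shares of the recovered RNA, whose total amount the sources do not give. Genes called higher or lower passed an adjusted p under 0.05 in edgeR's quasi-likelihood test with Benjamini-Hochberg adjustment over the 13631 genes tested. By this rule 5234 genes (38.4%) were higher in IMP2 IP and 5205 (38.2%) were lower. Most differences were small: a 2-fold or larger difference was found for 432 genes (3.17%) that were higher and 2157 (15.8%) that were lower, and the median absolute log2 fold change of called genes was 0.62. Members named as leading, highest or lowest in a list are those with an average log2 CPM of at least 3, and rarer members can lie beyond them. The median over all genes tested was 0.01. It was 0.17 for the 8936 protein-coding genes with an average log2 CPM of at least 3, of which 4536 were higher and 2692 lower. The medians of gene lists below can be read beside both values and beside those by gene span in the next paragraph. The part of gene span in the list medians was not tested. The libraries of the groups did not overlap for 78.6% of genes, so a lack of overlap is common here. The division into higher and lower depended on the scaling. It was 50.1% higher among called genes with TMM, 41.1% with upper quartile scaling, which moved the median by -0.13, and 63.6% with total counts, which moved it by 0.22.

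Messages of compact genes stood higher than messages of long ones. Among 5446 protein-coding genes with an average log2 CPM of at least 5, the log2 fold change fell with the genomic span of the gene, with a Spearman rank correlation of -0.50 across genes, which are not independent replicates. The median log2 fold change was 0.66 for 278 genes under 5 kb, of which 239 were higher and 17 lower. It was -0.40 for 270 genes over 200 kb, of which 34 were higher and 197 lower. Over all 12074 protein-coding genes tested the correlation was -0.30, and it was -0.28 without IMP2 IP replicate 1. Span counts introns as well as exons, and transcript length was not measured here.

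**Figure D1:**
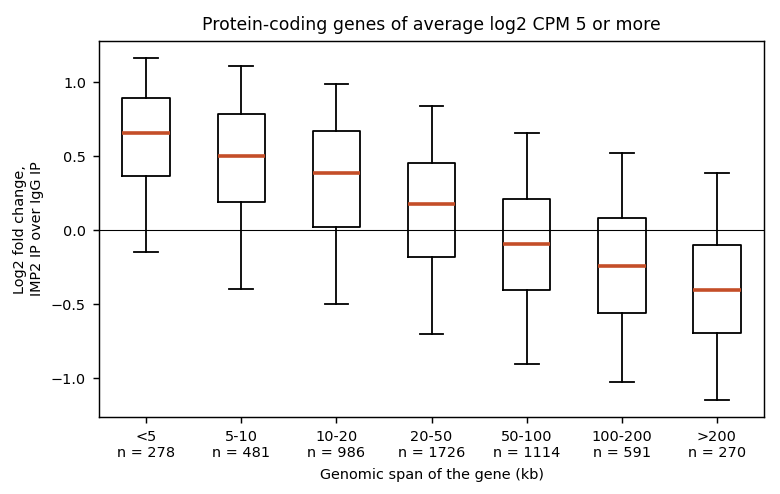
Log2 fold change (IMP2 IP over IgG IP, vertical axis) of protein-coding genes with an average log2 CPM of at least 5, by the genomic span of the gene in kb (horizontal axis). Boxes show quartiles, orange lines medians and whiskers the 5th and 95th percentiles; the medians step down from 0.66 under 5 kb to -0.40 over 200 kb.

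The IMP messages themselves differed by small amounts. Igf2bp2 (ENSMUSG00000033581), the message of IMP2, was at 112.4, 120.3 and 122.4 CPM in IMP2 IP, against 98.73, 97.35 and 100.8 CPM in IgG IP. The groups did not overlap, and the log2 fold change was 0.26 (SE 0.0458, edgeR adjusted p = 7.28e-05). Igf2bp1 was lower, at 121.2 ± 4.01 CPM in IMP2 IP and 165.7 ± 1.39 CPM in IgG IP (log2 fold change -0.45). Igf2bp3 was at 16.96 ± 0.805 CPM in IMP2 IP and 15.64 ± 0.984 CPM in IgG IP, with overlapping libraries, and did not pass (log2 fold change 0.12, edgeR adjusted p = 0.217). Its direction flipped with upper quartile scaling, and it passed as higher with total counts. Of 25 genes for the IMP family and its partners in messenger RNPs, 12 were higher (48%) and 9 lower (36%). These shares lie near those of all genes tested, and the median of 0.12 turned to -0.01 with upper quartile scaling. The highest included Hnrnpab (0.77), an hnRNP protein, and Pabpc1 (0.65), the cytoplasmic poly(A)-binding protein. The lowest included the RNA helicase Dhx9 (-1.01) and the Argonaute protein Ago2 (-0.68). Of 15 genes of the m6A system, which writes, erases and reads methyl marks on RNA, 4 were higher (26.7%) and 7 lower (46.7%). Over all genes tested, 38.4% were higher and 38.2% lower. With total counts 8 of the 15 were higher and 5 lower (median 0.20 against -0.02), so the values describe single members. The cytoplasmic reader Ythdf1 (0.60) was among the higher ones and the writer subunit Zc3h13 (-0.99) among the lower.

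The IGF list had 4 of 11 tested genes higher (36.4%) and 7 lower (63.6%), with a median of -0.61. Igfbp4 (ENSMUSG00000017493), a secreted protein that binds IGFs, was at 57.78, 52.56 and 51.49 CPM in IMP2 IP, against 25.11, 25.09 and 22.08 CPM in IgG IP (log2 fold change 1.16, SE 0.0713, edgeR adjusted p = 3.26e-10). Igfbp7 (0.71) and Igfbp3 (0.22) were higher too, although Igfbp3 did not pass with upper quartile scaling (0.09). Igf1r, the IGF1 receptor, was at 268.8, 256.7 and 273.9 CPM in IMP2 IP, against 498.3, 501.6 and 487.6 CPM in IgG IP (log2 fold change -0.90, SE 0.0383, edgeR adjusted p = 4.70e-12). Every IMP2 IP library lay below every IgG IP library for this receptor. Irs1 (-0.79), an adaptor below the receptor, Igf2r (-0.76), which clears IGF2, and the insulin receptor Insr (-0.62) were also lower. The binding proteins did not all go the same way: Igfbp5 (-1.6), chosen after its values were seen, was lower, at 2.39 CPM in IMP2 IP and 7.36 CPM in IgG IP on average.

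Of 28 genes of the mTOR and AKT pathway, 14 were higher (50%) and 11 lower (39.3%), with a median of 0.15. These shares lie near those of all genes tested, so the values describe single members and not the pathway. Lamtor5 (ENSMUSG00000087260), a subunit of the Ragulator complex that anchors mTORC1 on lysosomes, was at 13.90, 13.64 and 13.14 CPM in IMP2 IP, against 5.79, 5.68 and 5.73 CPM in IgG IP (log2 fold change 1.24, SE 0.103). The Ragulator subunits Lamtor4 (1.07) and Lamtor1 (1.06) followed, with Eif4ebp1 (1.04), the mTOR substrate that restrains translation. Rictor, the scaffold of mTORC2, was at 102.7, 115.5 and 115.7 CPM in IMP2 IP, against 220.2, 218.1 and 210.3 CPM in IgG IP (log2 fold change -0.96, SE 0.0482). Pik3r1 (-0.77), the regulatory subunit of PI3 kinase, Mtor itself (-0.60) and its inhibitor Tsc1 (-0.56) were lower.

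Members of transcription complexes also lay on both sides. RNA polymerase II had 9 of 11 subunits higher, led by Polr2d (1.18), Polr2g (1.02) and Polr2f (0.99). Its largest subunit Polr2a, the catalytic one, was at 745.3, 746.3 and 784.4 CPM in IMP2 IP, against 1314, 1320 and 1325 CPM in IgG IP (log2 fold change -0.80, SE 0.0364), with no overlap. Mediator, the complex that joins activators to the polymerase, had 18 of 31 subunits higher and 8 lower. Med21 (1.02), Med19 (0.87) and Med30 (0.87) led, and Med13 (-0.92) and Med13l (-0.80), parts of the kinase module, were lowest.

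**Figure D2:**
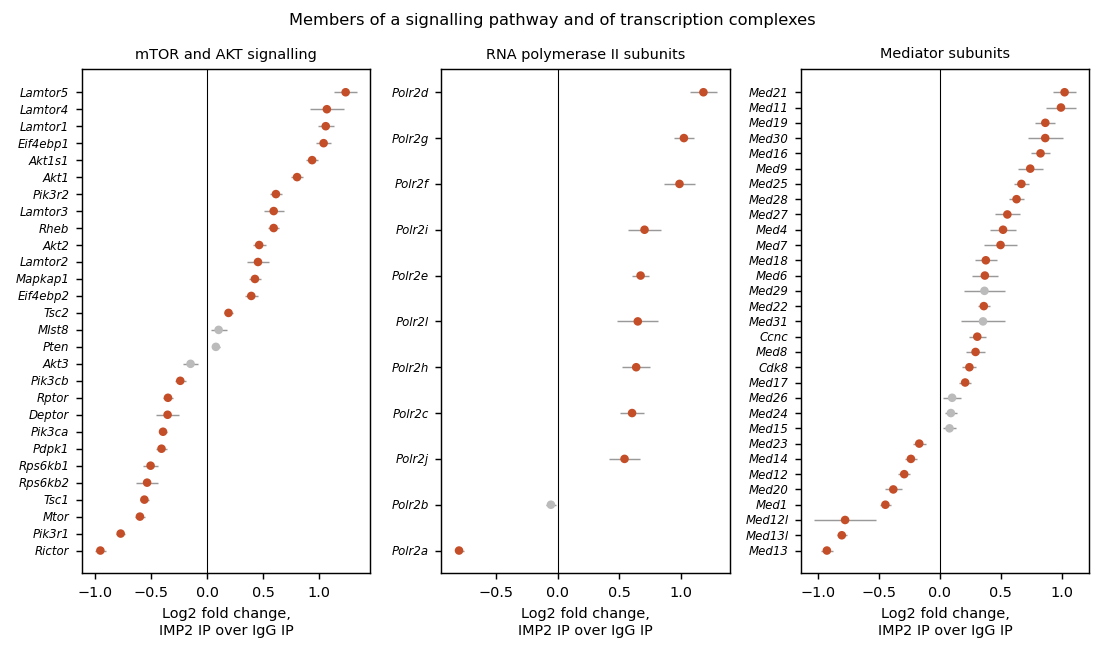
Log2 fold change (IMP2 IP over IgG IP, horizontal axis) of each tested member of 3 gene lists; bars are standard errors, orange points passed the threshold and grey points did not. In each panel members lie on both sides of 0, from Lamtor5 (1.24) to Rictor (-0.96), Polr2d (1.18) to Polr2a (-0.80) and Med21 (1.02) to Med13 (-0.92).

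The protein-coding genes highest in IMP2 IP were taken from those with an average log2 CPM of at least 5. Slc25a39 (ENSMUSG00000018677; GRCm38.p6, chromosome 11, 102402969 to 102408675), a carrier of glutathione into mitochondria, was at 213.3, 191.9 and 176.9 CPM in IMP2 IP, against 70.61, 70.43 and 74.95 CPM in IgG IP. Its log2 fold change was 1.43 (SE 0.0611, edgeR adjusted p = 4.84e-12). Eif5a (ENSMUSG00000078812; chromosome 11, 69916712 to 69921958), a translation factor with the modified residue hypusine, was at 562.9, 587.4 and 591.8 CPM in IMP2 IP, against 228.6, 224.6 and 220.0 CPM in IgG IP (log2 fold change 1.37, SE 0.0385). Cfl1 (chromosome 19, 5490455 to 5494031), the actin-severing cofilin, was at 728.8, 673.2 and 609.8 CPM in IMP2 IP, against 262.3, 281.7 and 266.9 CPM in IgG IP (log2 fold change 1.31). Bsg (chromosome 10, 79704358 to 79711979), the membrane glycoprotein basigin, was at 823.5, 838.5 and 770.6 CPM in IMP2 IP, against 324.1, 330.7 and 332.6 CPM in IgG IP (log2 fold change 1.3). For each of them every IMP2 IP library lay above every IgG IP library, which the rule required. The others were the lipid-anchored surface proteins Thy1 (1.41), Ly6a (1.39) and Ly6e (1.37), the mitochondrial thioredoxin Txn2 (1.34), the complex III subunit Uqcr10 (1.32) and the endoplasmic reticulum thioredoxin Txndc12 (1.3). Ly6 genes have close relatives, and reads shared between them are uncertain.

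**Figure D3:**
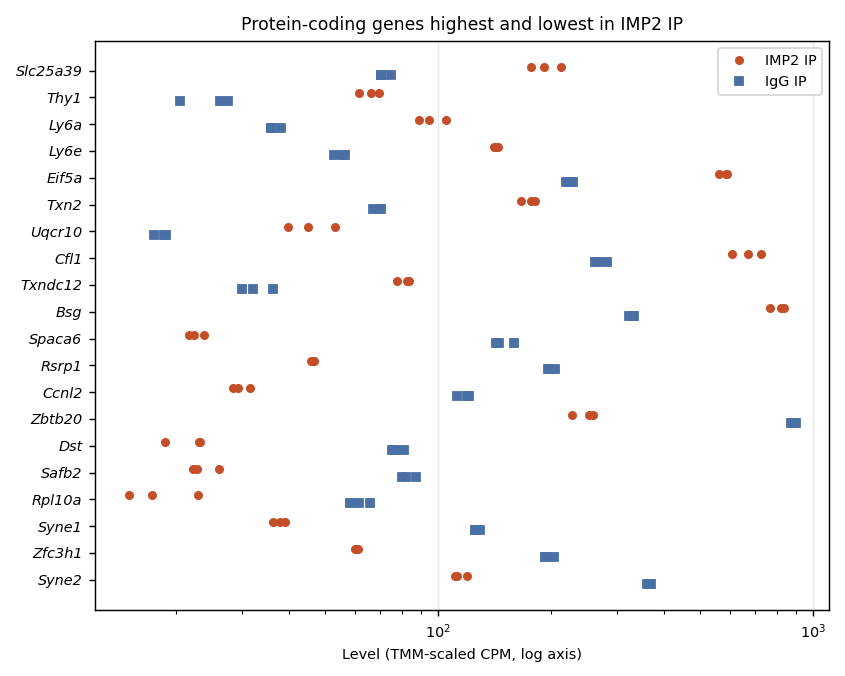
Level in each library (TMM-scaled CPM, log axis) of the 10 highest and the 10 lowest protein-coding genes; orange circles are the 3 IMP2 IP libraries and blue squares the 3 IgG IP libraries. The groups are apart for every gene, as the rule required, and Spaca6 has the widest gap among the lower genes (log2 fold change -2.72).

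Most tested nuclear-encoded messages of the respiratory chain were higher in every complex. Complex I, which oxidises NADH, had 32 of 37 tested subunits higher and 1 lower (median 0.74), and its subunits summed to 1103 CPM in IMP2 IP against 705.7 CPM in IgG IP. Ndufa8, an outer subunit, was at 41.15, 33.29 and 32.17 CPM in IMP2 IP, against 15.53, 14.10 and 16.06 CPM in IgG IP (log2 fold change 1.21). Ndufab1, the mitochondrial acyl carrier protein, was the exception, at 8.61, 10.03 and 8.96 CPM in IMP2 IP, against 13.91, 12.91 and 14.13 CPM in IgG IP (log2 fold change -0.57, edgeR adjusted p = 6.02e-05). All 4 subunits of complex II were higher, from Sdha (0.33), the flavoprotein, to Sdhc (1.26), a membrane anchor. Complex III had 9 of 9 higher, complex IV 10 of 11 and ATP synthase 11 of 15, led by Uqcr10, Cox6a1 (1.22) and Atp5d (1.22). In complex IV and in ATP synthase 1 subunit each was lower, by at least 2-fold. In each of them 1 subunit entered the test through IgG IP alone. Such a gene reached the filter's 0.662 CPM in all IgG IP libraries but not in all IMP2 IP libraries. Complex I assembly factors, which are not part of the finished complex, had 11 of 14 higher, with a smaller median of 0.44.

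Other mitochondrial lists varied. For mitochondrial ribosomal proteins, 67 of 74 genes were higher and 2 lower (median 0.74), with Mrpl36 (1.13) highest and Mrpl24 (-0.79) lowest. Of 35 genes for protein import and folding, 27 were higher. Timm17b, a channel subunit of the inner membrane translocase, was at 23.81, 18.77 and 16.64 CPM in IMP2 IP, against 6.10, 6.87 and 6.99 CPM in IgG IP (log2 fold change 1.56, SE 0.137). All 14 genes of the tricarboxylic acid cycle were higher, led by malate dehydrogenase Mdh2 (1.09) and citrate synthase Cs (0.95). The Slc25 carriers of the inner membrane were more mixed, with 24 of 40 higher and 9 lower, 3 of these at least 2-fold (median 0.39). Complex IV assembly factors had 8 of 14 higher and 2 lower, both at least 2-fold (median 0.38). Among the Slc25 carriers and among these factors, 1 member each entered the test through IgG IP alone, which favours a lower value in IMP2 IP. Of 19 genes for the upkeep and expression of mitochondrial DNA, 7 were higher, among them the packaging factor Tfam (0.55), and 6 lower, among them the polymerase Polg (-0.26), which did not pass with total count scaling (-0.04). These shares, 36.8% and 31.6%, lie near those of all genes, and the median was -0.03, which turned positive under several alternatives, up to 0.19 with total count scaling.

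Messages of redox enzymes had the highest median of the lists with at least 10 tested members. All 21 peroxiredoxins and antioxidant enzymes were higher, 8 of them at least 2-fold (median 0.95). Besides Txn2 the highest were the glutathione transferase Gstp1 (1.24) and the peroxiredoxins Prdx2 (1.21) and Prdx6 (1.14). Selenoproteins, which carry selenocysteine, were higher for 16 of 18 (median 0.66). Msrb1, which repairs oxidised methionine, was at 37.05, 34.66 and 32.12 CPM in IMP2 IP, against 11.97, 11.54 and 11.75 CPM in IgG IP (log2 fold change 1.55, SE 0.0828). Selenow (1.37), a small redox protein, and Gpx1 (1.26), a glutathione peroxidase, followed.

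The proteasome had 34 of 35 subunits higher and none lower (median 0.65; edgeR, adjusted p under 0.05). Psmd8, a subunit of its cap, was at 111.2, 111.3 and 103.4 CPM in IMP2 IP, against 50.83, 53.39 and 52.05 CPM in IgG IP (log2 fold change 1.06). Lysosomal enzymes were higher for 27 of 29 (median 0.65), and summed to 10020 CPM in IMP2 IP against 6451 CPM in IgG IP. The protease cathepsin B, Ctsb, was at 1256, 1169 and 1185 CPM in IMP2 IP, against 588.7, 575.0 and 579.9 CPM in IgG IP (log2 fold change 1.05), with no overlap. Genes of the signal recognition particle, translocon and signal peptidase were higher for 19 of 22, of oligosaccharyltransferase for 11 of 12 and of the ER membrane complex for 9 of 10. Their leading members were Srprb (1.1), a subunit of the receptor for the signal recognition particle, Ostc (1.14) and Emc10 (1.14). The COPI and COPII vesicle coats were higher for 15 of 21 and lower for 2, with a smaller median of 0.25, and for 10 and 5 with upper quartile scaling (median 0.12).

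The cytoskeleton lists went in different directions, and the part of gene span in this was not tested. Actin and its small regulators were higher for 33 of 36 genes (median 0.70) and summed to 11290 CPM in IMP2 IP against 6303 CPM in IgG IP. Pfn1, the monomer-binding profilin, was at 746.7, 729.1 and 655.0 CPM in IMP2 IP, against 308.6, 319.9 and 313.9 CPM in IgG IP (log2 fold change 1.18). Smooth muscle actin Acta2 (1.15) and the Arp2/3 subunit Arpc4 (1.14) were close to it. Myosin heavy chains, the motors on actin, were lower for 16 of 18 (median -0.57), and 2 of the 18 entered the test through IgG IP alone. Among members with an average log2 CPM of at least 3, Myo9a (-0.91) and Myo10 (-0.80) were lowest. Kinesins, the motors on microtubules, were lower for 22 of 34 and higher for 4 (median -0.31), with Kif24 (-1.02) lowest at that expression. With total count scaling 12 were lower and 8 higher (median -0.09). Of the 34 kinesins, 1 entered the test through IgG IP alone.

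All 36 tested genes for giant scaffold and motor proteins were lower, 30 of them at least 2-fold (median -1.23), and they summed to 23560 CPM in IMP2 IP against 58890 CPM in IgG IP. Syne2 (ENSMUSG00000063450; GRCm38.p6, chromosome 12, 75818318 to 76110928), a nesprin that ties the nucleus to the cytoskeleton, was at 119.8, 110.7 and 112.2 CPM in IMP2 IP, against 360.7, 366.7 and 370.1 CPM in IgG IP. Its log2 fold change was -1.68 (SE 0.0415, edgeR adjusted p = 1.39e-14). Mdn1, the giant ATPase of ribosome assembly, was at 352.6, 337.6 and 361.8 CPM in IMP2 IP, against 1100, 1121 and 1110 CPM in IgG IP (log2 fold change -1.66). The spread within each group was small beside these gaps. Dst (-1.84), a linker of filaments, and Syne1 (-1.75), the second nesprin, were the lowest with an average log2 CPM of at least 3.

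Chromatin regulators lay mostly on the lower side. Of 48 histone lysine methyltransferases and demethylases, 36 were lower, 9 at least 2-fold, and 3 higher (median -0.57). Kmt2d, an enhancer methyltransferase, was at 449.1, 410.7 and 437.4 CPM in IMP2 IP, against 1298, 1304 and 1308 CPM in IgG IP (log2 fold change -1.59, SE 0.0399). Its relatives Kmt2c (-1.42) and Kmt2a (-1.36) followed, while Suv39h1 (0.38), the heterochromatin methyltransferase, was higher. Chromatin remodellers were lower for 26 of 34 and higher for 3 (median -0.62), from Chd7 (-1.39) and Chd2 (-1.21), which slide nucleosomes, to Smarcb1 (0.41), a core subunit of the SWI/SNF complex. Of 330 Zfp genes, which encode zinc finger proteins, 164 were lower and 40 higher (median -0.28), and 6 entered the test through IgG IP alone. The split depended on the scaling, with 108 lower and 83 higher with total counts (median -0.06) and 207 lower and 26 higher with upper quartile scaling (median -0.41). Zfp692 (-1.87) was lowest and Zfp358 (1.09) highest among members with an average log2 CPM of at least 3.

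The other protein-coding genes lowest in IMP2 IP have varied roles. Spaca6 (ENSMUSG00000080316; chromosome 17, 17826085 to 17843010), known as a sperm membrane protein needed for fertilisation, was at 21.61, 22.34 and 23.72 CPM in IMP2 IP, against 159.8, 142.8 and 145.1 CPM in IgG IP (log2 fold change -2.72, SE 0.0591). Rsrp1, an arginine and serine rich protein, was at 45.78, 46.56 and 46.37 CPM in IMP2 IP, against 204.9, 196.4 and 197.9 CPM in IgG IP (log2 fold change -2.11). The groups did not overlap for either gene, which the rule required. Ccnl2 (-1.99), a cyclin of splicing factor compartments, Zbtb20 (-1.85), a transcription repressor, Safb2 (-1.82), a scaffold attachment factor, and Zfc3h1 (-1.70), which directs nuclear RNA to the exosome, were the others. Rpl10a (-1.77) was also among the 10, but its processed pseudogenes make its count uncertain, as for the cytosolic ribosomal proteins generally. Of 77 genes for those proteins, 40 were higher and 21 lower, and 6 entered the test through IgG IP alone.

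Matrix messages varied by family. Collagens were lower for 25 of 31 and higher for none (median -0.52, edgeR adjusted p under 0.05). Of the 31, 6 entered the test through IgG IP alone, which favours lower values in IMP2 IP. Col12a1, a fibril-associated collagen, was at 426.1, 438.1 and 453.0 CPM in IMP2 IP, against 1076, 1049 and 1056 CPM in IgG IP (log2 fold change -1.27), and Col6a3 (-1) was next among collagens with an average log2 CPM of at least 3, while rarer collagens were lower still. Matrix glycoproteins and proteoglycans were higher for 17 of 38 (44.7%) and lower for 16 (42.1%). These shares lie near those of all genes tested, so the values describe single members. The small proteoglycan decorin, Dcn, was at 10.87, 14.01 and 13.69 CPM in IMP2 IP, against 6.10, 5.22 and 6.25 CPM in IgG IP (log2 fold change 1.14). The large proteoglycans Vcan (-1.11) and Hspg2 (-0.92) were lower. Among 44 genes of the cell cycle and DNA replication, 29 were higher and 9 lower, with the kinase Cdk4 (1.06) at the top and the proliferation marker Mki67 (-1.06) at the bottom.

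**Figure D4:**
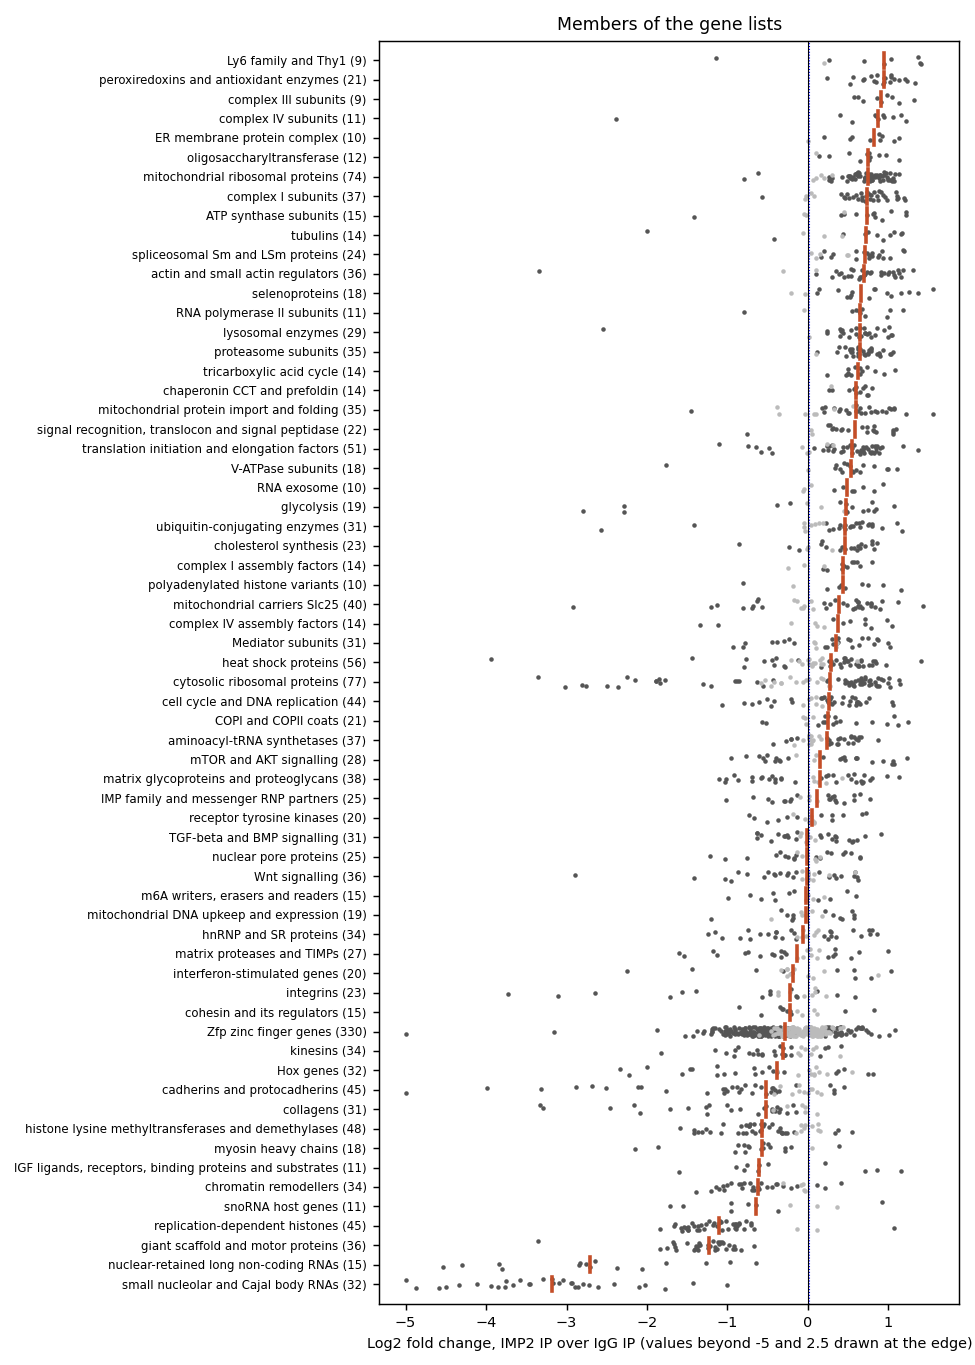
Log2 fold change (IMP2 IP over IgG IP, horizontal axis) of every tested member of the gene lists with at least 8 tested members, sorted by the list median (orange bars), with the number of members in brackets. Dark points passed the threshold and light points did not; the dotted line is the median of all genes (0.01), with antioxidant enzymes (0.95) near the top and giant scaffold proteins (-1.23) near the bottom.

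In CPM, the largest gains and losses came from abundant messages. Lamp1, a lysosomal membrane protein, was at 4095, 4252 and 4296 CPM in IMP2 IP, against 2278, 2215 and 2241 CPM in IgG IP (log2 fold change 0.91). Beta-actin Actb (0.94), vimentin Vim (0.77), pyruvate kinase Pkm (0.84) and the elongation factor Eef2 (0.55) were the next gains. Ahnak, a giant scaffold protein, was at 7351, 6585 and 6780 CPM in IMP2 IP, against 21860, 21470 and 21970 CPM in IgG IP (log2 fold change -1.66). The mean difference, IMP2 IP minus IgG IP, was -14860 CPM for this gene alone. Fibronectin Fn1 (-0.58), plectin Plec (-1.16), non-muscle myosin Myh9 (-0.73) and the endocytic receptor Lrp1 (-1.10) were the other large losses.

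Among the named non-coding RNAs, Rpph1 and Brip1os were higher in IMP2 IP and the others lower. Rpph1 (ENSMUSG00000092837; GRCm38.p6, chromosome 14, 50807447 to 50807771) is the catalytic RNA of ribonuclease P, which trims transfer RNA precursors. It was at 4578, 3353 and 2540 CPM in IMP2 IP, against 677.9, 716.1 and 717.3 CPM in IgG IP. Every IMP2 IP library was above every IgG IP library, while the IMP2 IP libraries spread widely, with replicate 1 highest. The log2 fold change was 2.31 (SE 0.135, edgeR adjusted p = 1.92e-10), and 2.09 without IMP2 IP replicate 1. Rmrp, the related RNA of ribonuclease MRP, went the other way, at 87.82, 98.21 and 73.85 CPM in IMP2 IP, against 494.8, 529.9 and 535.9 CPM in IgG IP (log2 fold change -2.59). Rn7sk, the RNA that holds the elongation factor P-TEFb inactive, was at 80.28, 96.93 and 67.79 CPM in IMP2 IP, against 456.6, 440.2 and 471.0 CPM in IgG IP (log2 fold change -2.48).

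Of 2949 long non-coding RNAs in the files, 495 were tested. Of these, 233 reached the filter through IgG IP alone, which favours lower values in IMP2 IP, so nothing is read from a count over the class. Brip1os, antisense to the helicase gene Brip1, was at 176.4, 172.4 and 177.6 CPM in IMP2 IP, against 110.6, 115.1 and 112.3 CPM in IgG IP (log2 fold change 0.64). Whether the counting used strand is not given, so its reads and those of Brip1 cannot be told apart. Neat1, the scaffold of paraspeckles, was at 32.66, 31.32 and 32.55 CPM in IMP2 IP, against 754.8, 741.4 and 745.8 CPM in IgG IP (log2 fold change -4.54, SE 0.0436). Kcnq1ot1 (-4.30), which silences an imprinted cluster, Xist (-3.80), which coats the inactive X, Dleu2 (-2.85) and the imprinted Meg3 (-2.84) were the next lowest. Scarna2 (-3.67), a Cajal body RNA that guides modification of small nuclear RNAs, was at 7.07, 6.09 and 4.95 CPM in IMP2 IP, against 68.91, 79.49 and 78.75 CPM in IgG IP. Of 1047 small nucleolar RNAs in the files, 49 were tested, and 47 of them reached the filter's 0.662 CPM in all IgG IP libraries but not in all IMP2 IP libraries. This selection favours lower values in IMP2 IP, and no count is read from these RNAs.

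**Figure D5:**
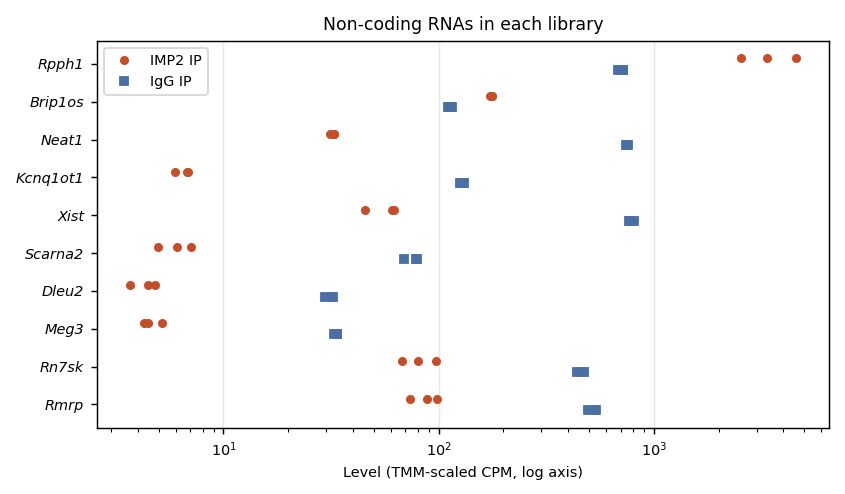
Level in each library (TMM-scaled CPM, log axis) of the named non-coding RNAs with Rmrp and Rn7sk; orange circles are the 3 IMP2 IP libraries and blue squares the 3 IgG IP libraries. Rpph1 and Brip1os lie to the right in IMP2 IP, and the others lie to the right in IgG IP, with Neat1 at 31.32 to 32.66 CPM in IMP2 IP against 741.4 to 754.8 CPM in IgG IP.

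Reads at microRNA hairpin loci were few. The labels name a TruSeq kit and no small RNA step, so these are counts at the hairpin loci and not levels of mature microRNAs. Of 8 loci tested, 5 reached the filter through IgG IP alone, Mir763 and Mir23a among them, and had to be lower. Mir6236, which can collect ribosomal RNA reads, did not pass (log2 fold change 0.14, and -0.26 without IMP2 IP replicate 1). The mature sequences of 3 loci, chosen after their values were seen, show which microRNAs those hairpins encode (RefSeq, GRCm38.p6; bases 2 to 8, the seed that pairs with targets, in capitals). The 3 seeds differ.
mmu-miR-763 (chr10:120448052-120448073, minus strand): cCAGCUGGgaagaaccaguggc
mmu-miR-23a-3p (chr8:84208563-84208583, plus strand): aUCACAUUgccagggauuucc
mmu-miR-196a-5p (chr11:96265187-96265208, plus strand): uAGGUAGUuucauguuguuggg
Mir763 had 5, 2 and 4 counts in IMP2 IP, against 45, 38 and 39 counts in IgG IP (log2 fold change -4.15, SE 0.306). Mir23a had 3, 6 and 12 counts in IMP2 IP, against 30, 19 and 31 counts in IgG IP (log2 fold change -2.64, SE 0.314). Mir196a-1, which lies in the Hox cluster of chromosome 11, had 25, 24 and 26 counts in IMP2 IP, against 49, 41 and 43 counts in IgG IP (log2 fold change -1.56, SE 0.194). No ranking of the hairpins is read from these values, since Mir763 and Mir23a had to be lower and counts this small leave wide errors.

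The lists of histone messages went in opposite directions, and the part of the message ends in this was not tested. Replication-dependent histones, which end in a stem-loop without a poly(A) tail, were lower for 42 of 45 and higher for 1 (median -1.10), and 5 of the 45 entered the test through IgG IP alone. Hist1h2ak was at 5.997, 6.23 and 4.27 CPM in IMP2 IP, against 13.36, 16.48 and 14.13 CPM in IgG IP (log2 fold change -1.42), and Hist1h4h (-1.26) was close. Hist2h4 (1.08) was the higher one, and its near-identical copies make all of these counts uncertain. Of the 10 polyadenylated histone variants, 8 were higher and 1 lower (median 0.44). H1fx, a linker histone, was at 24.05, 18.54 and 16.85 CPM in IMP2 IP, against 9.19, 9.34 and 7.88 CPM in IgG IP (log2 fold change 1.16), and H2afv (0.93) and H3f3b (0.75) followed.

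The genes named above were also compared with the IMP1 pull-down, in a fit of all 9 IP libraries. The 3 IMP2 IP libraries stand in both comparisons and the genes were chosen for their values there, so the counts of named genes are a description and no independent support. In that direct test, 5253 of 14076 genes (37.3%) were higher in IMP2 IP than in IMP1 IP and 4800 (34.1%) were lower. All 10 of the highest protein-coding genes were higher in IMP2 IP than in IMP1 IP, by log2 fold changes of 1.01 to 1.88. Of the 10 lowest, 9 were lower than in IMP1 IP. Spaca6 was the exception, at 21.66 ± 1.15 CPM in IMP2 IP and 24.51 ± 0.922 CPM in IMP1 IP (SD, n = 3 each; log2 fold change -0.14, edgeR adjusted p = 0.0657), although it passed when only the 6 libraries of IMP2 IP and IMP1 IP were fitted (-0.18, edgeR adjusted p = 0.0354). All 6 of the lowest non-coding RNAs were lower in IMP2 IP, Neat1 by -1.09 on the log2 scale. The means of all 6 were also lower in IMP1 IP than in IgG IP, so a low level is not particular to IMP2 IP. Neat1 was at 67.25 CPM in IMP1 IP and 699.7 CPM in IgG IP, and Xist at 123.5 and 734.6 CPM. Rpph1 was at 3347 ± 966 CPM in IMP2 IP and 754.3 ± 101 CPM in IMP1 IP (log2 fold change 2.18, edgeR adjusted p = 4.68e-13). Ahnak was at 6629 ± 357 CPM in IMP2 IP and 27460 ± 1022 CPM in IMP1 IP (log2 fold change -2.02). In wild-type total RNA, of which IMP1 WT and IMP2 WT gave 1 library each, Rpph1 was at 2.22 and 2.80 CPM, Ahnak at 574.2 and 561.4 CPM and Actb at 4210 and 3126 CPM. Several of the highest genes had higher levels there than in IMP2 IP. Thy1 was at 63.07 CPM in IMP2 IP and at 537.4 and 670.2 CPM in total RNA, Ly6a at 92.25 CPM and at 223.5 and 345.3 CPM, and Bsg at 778.4 CPM and at 1299 and 1427 CPM. Of the genes lowest against IgG IP, Syne2 was at 109.6 CPM in IMP2 IP and at 7.39 and 7.03 CPM in total RNA. Zbtb20 and Spaca6 were also above total RNA, while Rsrp1, Ccnl2, Dst, Safb2 and Rpl10a were below it. Syne1 and Zfc3h1 lay between its libraries. Of the largest losses, Plec was at 3572 CPM in IMP2 IP and at 296 and 306.8 CPM in total RNA. Myh9 and Lrp1 were also above total RNA, and Fn1 was below it. The total RNA libraries were scaled with the IPs but are a different preparation, so the values are given beside the IPs without a test.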

How the data were processed

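The authors deposited raw read counts per Ensembl gene in 1 table for each library, and the values show no scaling. The submitters' processing notes name STAR, HTSeq and mm10. Versions, settings and strand use are not given in the sources used here. Library construction followed Illumina TruSeq, per the labels. The 5 tally lines of each table were kept apart from the 43629 genes. Symbols were found for 42462 genes, and 33280 matched RefSeq's GRCm38.p6 table, the source of biotypes, positions and genomic span.

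The 6 libraries were fitted in R 4.3.3 with edgeR 4.0.16: TMM scaling (factors 1.07 to 1.08 in IMP2 IP and 0.924 to 0.933 in IgG IP), the default expression filter by group (0.662 CPM), quasi-likelihood, 2-sided, no covariate. The common biological coefficient of variation was 4.45%. A count of 0 allows up to 3 counts, which is 0.138 to 0.253 CPM, and this covers counting error only. Standard errors were derived from each log2 fold change and its F value. Steps were tested on simulated data. The comparison with IMP1 IP used all 9 IP libraries. Scaled values of the IMP1 and total RNA comparisons are on the scale of their own set of libraries. IMP1 KO and IMP2 KO total RNA were not used. Replicate numbers did not pair the samples: deviations of same-numbered libraries correlated at -0.19, -0.11 and -0.07.

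The members, the 67 gene lists and the rules were chosen with earlier results of these data known; 1 further list is not reported here. Named genes were the 10 highest and 10 lowest protein-coding genes (average log2 CPM of at least 5, no overlap), the 6 highest and 6 lowest non-coding RNAs (at least 3; 2 qualified as higher), the 5 largest gains and losses in CPM, the IMP genes, and up to 4 extreme members of each list described (at least 3). Predicted genes were passed over. A planned split by protein length was not run, since protein sequences were not used here. Alternatives were DESeq2 1.42.0, limma 3.58.1 voom, other scalings and filters, the replicate block, all 9 IP libraries and each library left out.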

Additional observations from a re-analysis of the deposited data

How the results depend on the processing

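The gene and list results against IgG IP were recomputed under 16 alternatives. With the replicate block, 5186 genes were higher and 5133 lower, with 433 and 2150 at least 2-fold. DESeq2's Wald test gave 4689 higher and 4945 lower, and voom gave 5169 and 5191. Leaving out 1 library gave 5044 to 5574 higher and 4982 to 5460 lower. The count at least 2-fold higher was 432 as reported, 190 with upper quartile scaling, 1249 with total counts, 1061 with no count filter and 111 with a filter of 10 CPM in 3 libraries. That filter also gave 3454 lower and 493 at least 2-fold lower, from fewer genes tested, and no filter gave 4259 at least 2-fold lower. For the 134 genes named in the text, 2124 of 2137 recomputed values kept their direction and their side of the threshold, and the exceptions were Igf2bp3, Igfbp3, Polg, Mir6236 and the marker Sox9, which turned to 0.02775 with total counts. Igf2bp3 turned to -0.01089 with upper quartile scaling and to -0.02251 with the 10 CPM filter, which were also the medians of the IMP family list there. Mir6236 turned to -0.003546 with voom and lay between -0.2553 and 0.4917 with 1 library left out. Of 1072 recomputed list medians, 707 stayed within the spread (1 SD) of the list median over the IMP2 IP libraries, 352 moved by more and 13 changed sign. The median for mitochondrial DNA upkeep became 0.1886 with total counts, 0.1321 with no filter, 0.0151 with all 9 IP libraries and between -0.05557 and 0.02639 with 1 library left out, positive without IMP2 IP replicate 2, IMP2 IP replicate 3 or IgG IP replicate 1. With total counts and with no filter, matrix proteases came to 0.07637 and 0.01974, and hnRNP and SR proteins to 0.1527 and 0.09547. Interferon-stimulated genes came to 0.03696 with total counts. The cause of these changes was not tested. Against IMP1 IP, 39 of 41 calls were the same with only 6 libraries in the fit. At the hairpin loci, where IMP2 IP had as few as 2 counts in a library, depth limits the precision.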
